A study of Mus musculus with 12 samples.

Results

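Chemokine ligands and receptors were examined in RNA from the inner lining of mouse carotid arteries, in a ligated and an unligated vessel and with or without an inhibitor of DNA methylation. The set was taken by name and consisted of 47 genes, 31 ligands and 16 receptors, with the platelet chemokines Pf4 and Ppbp left out. Of these, 46 had at least 1 probe on the array and Cxcl5 had none annotated to it. The 46 genes shared 68 of the 45281 probes. Of the 46, 22 genes passed the detection filter and were tested among 10596 genes in all.

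Chemokines are small secreted or membrane-anchored proteins that guide white blood cells by binding G protein-coupled receptors on them. In the artery wall, endothelial cells, smooth muscle cells and resident or recruited leukocytes all make them, and several are known from experimental atherosclerosis, where they draw monocytes, T cells and neutrophils to the vessel. Most inflammatory ligands are made on demand, whereas a few, such as Cxcl12, are also made in healthy tissue.

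Male C57Bl6 mice aged 9 weeks (the series design gives 6 to 8 weeks) had 3 of the 4 distal branches of the left common carotid artery tied off, which leaves low and oscillating flow in that vessel. The right artery of each animal was not operated on. Animals were given saline or 5-aza-2'-deoxycytidine (5Aza, a DNA methyltransferase inhibitor, 0.2 mg/kg/day) by daily injection for 3 weeks, beginning 2 weeks before surgery, and arteries were taken 7 days after it. The 4 groups were saline LCA (ligated left artery), saline RCA (unligated right artery), 5Aza LCA and 5Aza RCA, with 3 samples each. Every sample was RNA flushed out of 3 pooled arteries with lysis reagent, so an individual mouse has no value of its own. All animals received injections and surgery on the left side, and no vessel of an unoperated mouse was included. Altered flow, the operation itself and the side of the body therefore cannot be told apart. Samples carry the numbers of their titles.

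Between 21443 and 23251 probes were detected per array (detection p under 0.05). Of 15 endothelial markers, 14 were detected on all 3 arrays of each group, but markers of other cells were present too. The summed level of 18 macrophage and monocyte markers, as log2 of the sum of intensities, was 11.51 to 13.45 in saline LCA, 8.47 to 9.86 in saline RCA, 11.51 to 12.09 in 5Aza LCA and 8.76 to 10.4 in 5Aza RCA. Sample saline LCA 1 stood apart from its group: its correlation with saline LCA 2 and 4 over all genes tested was 0.857 and 0.856, while those 2 samples correlated at 0.971. It also held the lowest macrophage level of its group. Counts of calls that rest on saline LCA are therefore given with and without saline LCA 1. In these bulk samples, fewer cells of a type and less RNA per cell cannot be told apart. P-values measure the spread between pools alone, and the number of arrays limits the precision of each comparison.

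Levels are background-corrected, quantile-normalized log2 intensities, on which probes without signal lie near 4.2. A level is compared between samples within a gene and not between genes. Differences, their standard errors (SE) and two-sided p-values come from limma's moderated test fitted to all 12 samples. A gene was called where its p-value, adjusted by the Benjamini-Hochberg method over all 10596 genes, was under 0.05. Where no array of the lower group detected a gene, its fold is a bound and is written "at least", taking for each array of that group the weakest signal detected there, or the gene's own if higher. Bounds are open to the normalization in the same way as the levels. They concern the detection limit of the lower group alone and not the spread between samples. Undetected arrays of the higher group enter them at their own level.

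Promoter windows of 4 members are printed here: Cxcl10, the member called both between saline vessels and between ligated vessels, with its neighbour Cxcl9, and the ligand Cxcl12 with its receptor Cxcr4. They were chosen with their values known. The windows run from 250 bases before to 50 after the gene start, are from RefSeq on build GRCm38.p6, and are written 5′ to 3′ on the gene's own strand. Capitals mark matches, on either strand, to the NF-kB consensus motif or to an interferon-response motif (GAAA, then NN for any 2 bases, then GAAA again). The windows of Cxcl10 (chr5:92348840-92349139, minus strand), Cxcl9 (chr5:92328030-92328329, minus strand), Cxcl12 (chr6:117168285-117168584, plus strand) and Cxcr4 (chr1:128592250-128592549, minus strand) are as follows.
Cxcl10: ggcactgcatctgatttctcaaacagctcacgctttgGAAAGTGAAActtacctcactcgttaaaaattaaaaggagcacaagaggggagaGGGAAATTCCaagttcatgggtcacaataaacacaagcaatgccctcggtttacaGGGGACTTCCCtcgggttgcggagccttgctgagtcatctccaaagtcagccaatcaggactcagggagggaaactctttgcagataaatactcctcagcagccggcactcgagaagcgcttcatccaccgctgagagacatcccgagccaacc
Cxcl9: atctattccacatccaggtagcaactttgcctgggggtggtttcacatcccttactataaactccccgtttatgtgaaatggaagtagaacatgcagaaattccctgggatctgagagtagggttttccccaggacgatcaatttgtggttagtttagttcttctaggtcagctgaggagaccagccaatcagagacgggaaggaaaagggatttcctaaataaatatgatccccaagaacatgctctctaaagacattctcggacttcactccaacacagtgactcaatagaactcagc
Cxcl12: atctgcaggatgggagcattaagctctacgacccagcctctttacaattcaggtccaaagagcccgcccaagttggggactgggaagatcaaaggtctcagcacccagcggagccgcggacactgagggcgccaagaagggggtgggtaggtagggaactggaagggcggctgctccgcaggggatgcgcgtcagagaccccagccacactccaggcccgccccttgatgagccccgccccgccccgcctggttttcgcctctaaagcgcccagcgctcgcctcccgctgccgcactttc
Cxcr4: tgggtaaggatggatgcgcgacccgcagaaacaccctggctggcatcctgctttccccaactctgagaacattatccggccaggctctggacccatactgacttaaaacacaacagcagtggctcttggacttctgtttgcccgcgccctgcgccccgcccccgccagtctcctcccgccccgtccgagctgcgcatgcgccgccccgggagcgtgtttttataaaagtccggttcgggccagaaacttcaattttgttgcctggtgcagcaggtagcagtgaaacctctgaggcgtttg
The Cxcl10 window held 3 NF-kB matches, of which 2 overlap by all but 1 base, and 1 interferon-response match. The windows of Cxcl9, Cxcl12 and Cxcr4 held no match to either. Over all 32851 promoter windows in the reference table, 8.46% held the NF-kB motif and 3.44% the interferon motif. Among the 17 tested members with a window, 4 held the NF-kB motif (Ccl9, Cxcl1, Cxcl2 and Cxcl10) and 3 the interferon motif (Ccl19, Cxcl10 and Cxcl14). The Cxcl12 and Cxcr4 windows each held 20 CpG sites, the Cxcl10 window 10 and the Cxcl9 window 4, against a median of 7 over all windows. A match is a description of the letters and not evidence of a bound factor.

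Members detected at all differed by vessel. Detection was counted over all 46 members with a probe, whether or not they were later tested. Arrays of saline RCA detected 8 to 10 members and arrays of 5Aza RCA 9 to 15. Arrays of the ligated vessel detected 17 to 27 members under saline and 19 to 22 under 5Aza. Of the 46, 16 members were detected on 2 or 3 saline LCA arrays and on no saline RCA array, or 34.8%, where 3.45% of the 19057 genes with a probe showed that pattern. They were the ligands Ccl2, Ccl3, Ccl5, Ccl6, Ccl7, Ccl12, Ccl17, Cxcl9, Cxcl10 and Xcl1 and the receptors Ccr2, Ccr7, Cxcr2, Cxcr4, Cxcr6 and Cx3cr1. Under 5Aza the corresponding count was 9 of 46, or 19.6%, against 1.55% of all genes: Ccl4, Ccl5, Ccl6, Ccl8, Cxcl10, Cxcl14, Xcl1, Ccr2 and Cxcr4. A difference between these counts was not tested. Ccr2 entered them through different probes. The probe whose levels are given below was detected on 2 saline LCA arrays and no 5Aza LCA array, and the other on 2 5Aza LCA arrays and no saline LCA array. Detection on 2 or 3 saline LCA arrays and on no array of the other groups was found for 5 members, Ccl2, Ccl3, Ccl17, Ccr7 and Cxcr2, or 10.9%, against 0.987% of all genes. The 6 members detected on all 12 arrays were Ccl25, Cxcl1, Cxcl2, Cxcl12, Cxcl16 and Cx3cl1, or 13%, against 42.7% of all genes.

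**Figure D1:**
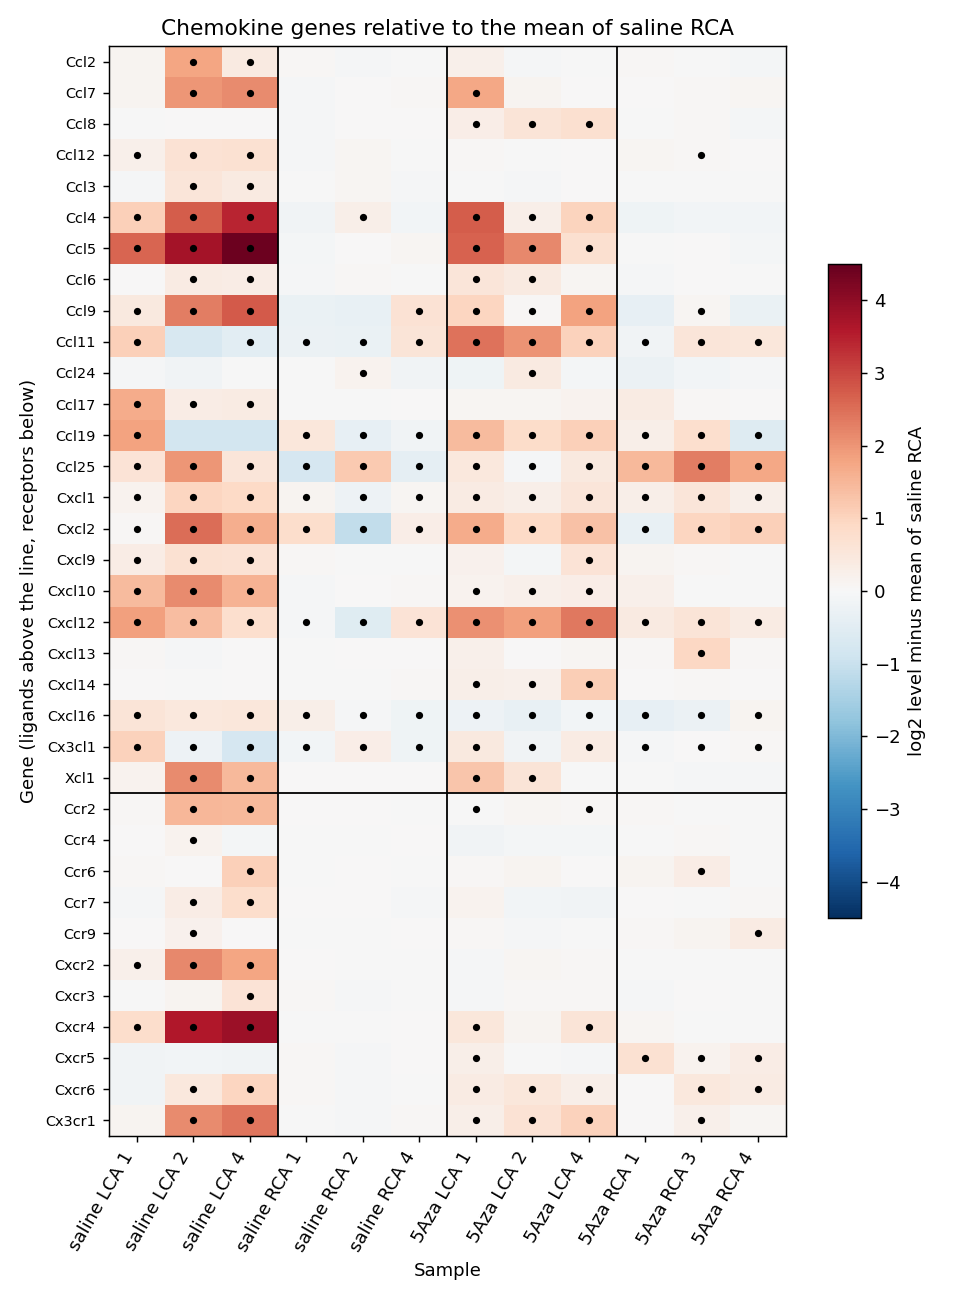
Heat map of the 35 members detected on at least 1 array (rows) in the 12 samples (columns). Colour is the log2 level minus the mean of the 3 saline RCA samples of that gene, and a black dot marks an array that detected it by any of its probes. Most colour and most dots that are not shared by all groups lie in the ligated vessel, and saline LCA 1 lacks dots that saline LCA 2 and 4 hold.

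Detection in the saline ligated vessel was split within the group. Of the 46 members, 9 were detected on saline LCA 2 and 4 but on neither saline LCA 1 nor any saline RCA array (Ccl2, Ccl3, Ccl6, Ccl7, Xcl1, Ccr2, Ccr7, Cxcr6 and Cx3cr1), or 19.6%, against 1.87% of all genes with a probe. Ccl7, a monocyte attractant, stood at 6.23 in saline LCA 2 and 6.37 in saline LCA 4 and at 4.37 in saline LCA 1. Ccl2, the main ligand of Ccr2, stood at 6.03, 4.66 and 4.38 in saline LCA 2, 4 and 1. Ccr2 itself, the receptor by which inflammatory monocytes leave the marrow and enter tissue, stood at 5.72 and 5.66 in saline LCA 2 and 4 and at 4.26 in saline LCA 1. These 3 genes were thus at the background level in saline LCA 1, and since none was detected on all 3 arrays of a group, none was tested.

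The other members left untested follow. Detected on 4 arrays were Ccl6, Xcl1 and Ccr2, the last on 2 arrays by each of its 2 probes. Ccl7 was detected on 3 arrays, Ccl2, Ccl3, Ccl24, Ccr6, Ccr7 and Ccr9 on 2, and Cxcl13, Ccr4 and Cxcr3 on 1. Xcl1, a ligand made by T and natural killer cells, was at 4.36, 6.32 and 5.68 in saline LCA 1, 2 and 4 and at 5.46, 4.8 and 4.2 in 5Aza LCA 1, 2 and 4. No array detected Ccl1, Ccl20, Ccl22, Ccl28, Cxcl11, Cxcl15, Ccr1, Ccr3, Ccr8, Ccr10 or Xcr1. These are 11 of 46 members, or 23.9%, and 24.9% of all genes with a probe were likewise detected on no array. Levels of the 24 untested members with a probe ranged from 4.14 to 6.37. No CC receptor among the 9 in the set was tested, while 4 of 5 CXC receptors were.

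Saline LCA was set against saline RCA to ask what low, oscillating flow for 7 days is accompanied by in animals given saline. Of the 22 tested members 7 rose and none fell: the ligands Cxcl10, Ccl5, Ccl4 and Cxcl12 and the receptors Cxcr4, Cxcr2 and Cx3cr1. That is 31.8%, while of all genes tested 11.5% were called in either direction, 5.29% higher and 6.24% lower. The members' median log2 difference was 0.73 and that of all genes -0.05. These shares describe the genes that were tested. Of the 22, 13 had passed the detection filter through the ligated vessel and not through an unligated group. Among the called, Cxcl10, Cxcr2 and Cxcr4 had passed through saline LCA alone. Ccl4 and Ccl5 had passed through both ligated groups alone, and Cx3cr1 through 5Aza LCA alone. The p-values of these genes do not allow for this selection. The filter itself favoured genes that were higher in the ligated vessel, so their count is no support for a difference. This limit also holds for the other counts given below for a ligated against an unligated vessel.

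Among the interferon-induced ligands of Cxcr3, Cxcl10, which attracts activated T cells, was at 5.71, 6.41 and 5.85 in saline LCA 1, 2 and 4 and at 4.24, 4.29 and 4.32 in saline RCA 1, 2 and 4. All 3 ligated samples lay above all 3 unligated ones, which were not detected. Cxcl10 was at least 2.81-fold higher (log2 difference 1.71, SE 0.19, limma adjusted p = 0.000931). A second probe of Cxcl10 gave 0.65 in the same direction, adjusted p = 0.0768 over all probes kept. Cxcl9, its neighbour, was at 4.65, 5 and 4.96 in saline LCA and 4.37, 4.31 and 4.29 in saline RCA, without overlap, with limma adjusted p = 0.0823. Cxcr3 was detected on saline LCA 4 and on no other array, and Cxcl11 on none.

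Of the inflammatory CC ligands, Ccl5, a T cell and monocyte attractant also stored in platelets, was at 6.89, 8 and 8.67 in saline LCA 1, 2 and 4 and at 4.18, 4.27 and 4.36 in saline RCA. It was at least 10.2-fold higher (log2 difference 3.58, SE 0.47, limma adjusted p = 0.00205). Ccl4, made by activated macrophages and T cells, was at 5.47, 7.13 and 7.82 in saline LCA and at 4.25, 4.66 and 4.29 in saline RCA, a log2 difference of 2.41 (SE 0.61, limma adjusted p = 0.031). The groups did not overlap for either gene, and saline LCA 1 was the lowest ligated sample for both. A second probe of Ccl4 was detected on no array. Ccl9, a myeloid cell attractant, was at 5.01, 6.88 and 7.33 in saline LCA and 4.27, 4.23 and 5.23 in saline RCA, where saline RCA 4 lay above saline LCA 1, and it was not called (log2 difference 1.83, SE 0.57, limma adjusted p = 0.0565).

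Cxcl12, which retains and recruits cells that carry Cxcr4, was detected on all 12 arrays. It was at 9.47, 9.03 and 8.4 in saline LCA 1, 2 and 4 and at 7.56, 7.07 and 8.26 in saline RCA 1, 2 and 4. The difference was 1.33 on the log2 scale, or 2.52-fold (SE 0.32, limma adjusted p = 0.0256). In contrast to Ccl4, Ccl5 and Ccl9, saline LCA 1 was the highest saline LCA sample. The same held for Ccl11, Ccl19, Cxcl16, Cx3cl1 and Ccl17, the last at 5.82, 4.47 and 4.51 in saline LCA 1, 2 and 4. The 5 kept probes of Cxcl12 ranged in its vessel difference from 0.16 to 1.57, all positive. Of the 5, 2 were called over all probes (adjusted p = 0.0289 and 0.0199).

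Its receptor Cxcr4 was at 5.03, 7.83 and 8.07 in saline LCA 1, 2 and 4 and at 4.21, 4.22 and 4.26 in saline RCA. It was at least 5.56-fold higher (log2 difference 2.75, SE 0.59, limma adjusted p = 0.0187). Cxcr2, the neutrophil receptor for Cxcl1 and Cxcl2, was at 4.51, 6.44 and 6.06 in saline LCA and 4.3, 4.28 and 4.27 in saline RCA, at least 2.25-fold higher (log2 difference 1.39, SE 0.37, limma adjusted p = 0.0367). Saline LCA 1 was close to the unligated level for Cxcr2. Cx3cr1, the receptor of monocytes and macrophages for Cx3cl1, was at 4.41, 6.39 and 6.67 in saline LCA and 4.27, 4.24 and 4.32 in saline RCA, at least 2.5-fold higher (log2 difference 1.55, SE 0.46, limma adjusted p = 0.0489). It was not detected in saline LCA 1.

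**Figure D2:**
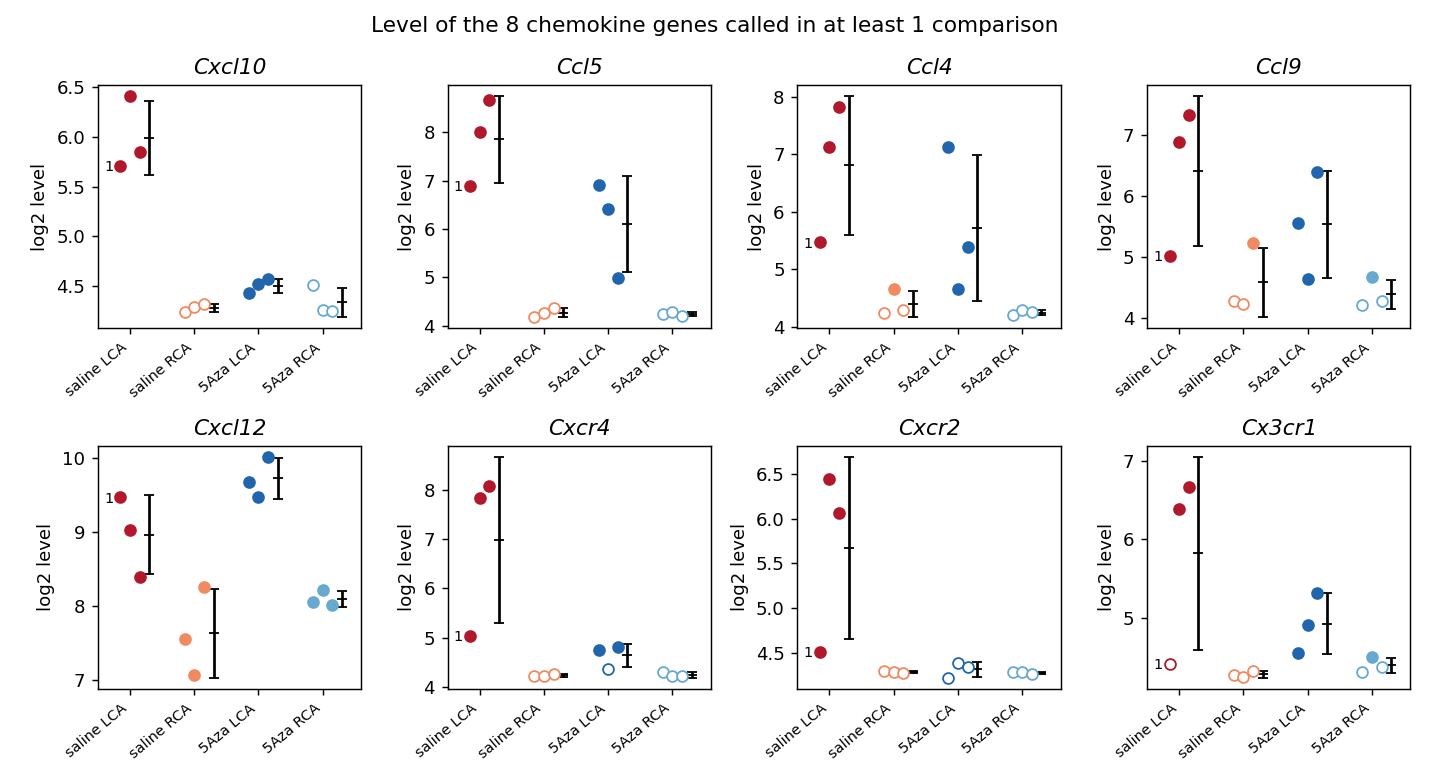
Log2 level (vertical axis) of the 8 members called in at least 1 comparison, 1 panel per gene, in the 4 groups. Each point is a sample, open where the array did not detect the gene, the digit 1 marks saline LCA 1, and the bar beside each group is the mean ± SD of its 3 samples. For Cxcr4, Cxcr2 and Cx3cr1, saline LCA 2 and 4 lie between 6.06 and 8.07 while saline LCA 1 lies between 4.41 and 5.03.

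The remaining tested members did not pass the threshold. The neutrophil attractant Cxcl1 was at 10.19, 11.03 and 10.94 in saline LCA and 10.16, 9.83 and 10.15 in saline RCA (log2 difference 0.68, limma adjusted p = 0.0739). Cxcl2 had 2 kept probes that pointed in opposite directions, at 1.4 and -0.49 on the log2 scale. The membrane-anchored ligands Cxcl16 and Cx3cl1 gave differences of 0.54 and 0.02 with limma adjusted p = 0.0769 and 0.978, and the 95% interval for Cx3cl1 ran from -0.78 to 0.82. The Cx3cl1 difference without saline LCA 1 was -0.48 (limma adjusted p = 0.165). So the receptor Cx3cr1 was called in the ligated vessel and its ligand was not, a difference between genes that was not tested. The other tested members, Ccl8, Ccl11, Ccl12, Ccl17, Ccl19, Ccl25, Cxcl14, Cxcr5 and Cxcr6, had differences from -0.15 to 1.05. Groups did not overlap, with the ligated vessel higher, for 12 of 22 members (13.3% of all genes), and with it lower for Cxcr5 (16.4% of all genes).

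The count of calls depended on individual arrays. Without saline LCA 1, 13 of the 22 members were called, all of them higher, against 29.4% of all genes in either direction and 13.7% higher. The same 7 members were among them, with log2 differences of 4.06 for Ccl5, 3.72 for Cxcr4, 3.08 for Ccl4, 2.26 for Cx3cr1, 1.97 for Cxcr2, 1.85 for Cxcl10 and 1.08 for Cxcl12, and the added ones were Ccl9, Ccl12, Cxcl1, Cxcl2, Cxcl9 and Cxcr6. Without saline LCA 2, saline RCA 1 or saline RCA 2 there were 2 calls, Ccl5 and Cxcl10, and without saline LCA 4 or saline RCA 4 there were 3, with Cxcl12. Ccl5 and Cxcl10 were called whichever array was left out. The call of Cx3cr1 held in 6 of the 27 alternative settings that tested it and that of Cxcr2 in 13 of 27. Calls of Ccl4 held in 18 of 28, of Cxcr4 in 19 of 28 and of Cxcl12 in 21 of 29.

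Macrophage markers differed between the same vessels: 14 of 16 tested rose in saline LCA with a median log2 difference of 3.63, and none fell (15 of 16 and 4.33 without saline LCA 1). Of 18 with a probe, 15 were detected on all 3 saline LCA arrays and 8 on no saline RCA array. Neutrophil markers summed to 7.87 to 9.65 in saline LCA, lowest in saline LCA 1, and to 7.51 to 7.56 in saline RCA. Of 2 tested, S100a9 rose (log2 difference 3.78, limma adjusted p = 0.0154), by 4.73 without saline LCA 1 (limma adjusted p = 0.000279). Of 4 dendritic cell markers tested, Itgax rose (2.41, limma adjusted p = 0.0299), with 1 called higher and 1 lower without saline LCA 1. T and natural killer cell markers summed to 8.24 to 8.88 in saline LCA and 8.05 to 8.25 in saline RCA, with Cd3g, Gzmb and Cd5 detected on no array. None of 3 tested was called, with 1, Cd2, called higher without saline LCA 1. B cell markers summed to 6.63 to 6.93 and 6.62 to 6.67, with Pax5 and Blk detected on no array. Erythroid and platelet markers summed to 9.34 to 10.87 in saline LCA, lowest in saline LCA 1, and to 8.76 to 9.02 in saline RCA. Of 6 tested, the haemoglobin chain Hbb-bs (log2 difference 4.2, limma adjusted p = 0.0348) and the platelet chemokine Pf4 (2.87, limma adjusted p = 0.045) rose, with 3 called, all higher, without saline LCA 1. Smooth muscle markers summed to 11.38 to 11.58 and 10.65 to 11.04, without overlap, with none of 7 called and 1, Mylk, called higher without saline LCA 1. Endothelial markers summed to 13.03 in saline LCA and 13.43 to 13.52 in saline RCA, and 5 of 14 tested fell (7 lower and 2 higher without saline LCA 1). Fibroblast markers summed to 10.98 to 11.71 and 11.38 to 11.82. Of 10 tested, Col1a1 rose (1.65, limma adjusted p = 0.0147) and Pi16 fell (-2.01, limma adjusted p = 0.0301), also without saline LCA 1. Adipocyte markers summed to 8.46 to 9.87 and 8.16 to 9.12, with none of 4 called (1 higher and 1 lower without saline LCA 1). The part of these cells in the chemokine differences was not tested.

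Under 5Aza, the same comparison of ligated with unligated vessels called no member at adjusted p under 0.05, with 0.453% of all genes called (0.236% higher and 0.217% lower), and 7 of 22 members had an unadjusted p under 0.05 in limma. The members' median log2 difference was 0.3, and that of all genes -0.02. Cxcl12 came closest. It was at 9.68, 9.48 and 10.02 in 5Aza LCA 1, 2 and 4 and at 8.05, 8.22 and 8.01 in 5Aza RCA 1, 3 and 4, a log2 difference of 1.63 (SE 0.32, limma adjusted p = 0.055). The groups were more than 1 log2 unit apart, and 10 of 29 alternative settings called it. Ccl5 was at 6.91, 6.42 and 4.99 in 5Aza LCA and 4.25, 4.28 and 4.19 in 5Aza RCA (log2 difference 1.86, SE 0.47, limma adjusted p = 0.14). Ccl8, a monocyte attractant, was at 4.54, 4.82 and 4.95 in 5Aza LCA and 4.23, 4.29 and 4.16 in 5Aza RCA (0.55, SE 0.16, limma adjusted p = 0.182).

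Other members with groups that did not overlap under 5Aza were Ccl4, Ccl11, Ccl19, Cxcl14, Cxcr4 and Cx3cr1. With Cxcl12, Ccl5 and Ccl8 these made 9 of 22 higher in the ligated vessel, beside 10.9% of all genes, and Ccl25 was lower, beside 12.2% of all genes. Of the 9, Ccl4, Ccl5, Ccl8, Cxcl14, Cxcr4 and Cx3cr1 had passed the detection filter through ligated groups alone. The filter favoured them, so this count is no support for a difference. Ccl4 was at 7.13, 4.66 and 5.39 in 5Aza LCA and at 4.2, 4.29 and 4.26 in 5Aza RCA. Ccl9 was at 5.56, 4.64 and 6.39 in 5Aza LCA and at 4.21, 4.66 and 4.27 in 5Aza RCA, where the groups overlapped. Leaving out saline LCA 1, which is in neither group but shares the estimate of spread, gave 2 calls (Ccl5 and Cxcl12) with 2.7% of all genes called, 1.46% higher and 1.24% lower, and leaving out saline RCA 4 gave 1, Cxcl12. Of 16 macrophage markers (median 2.08), Aif1 (3.17, limma adjusted p = 0.00706) and Tyrobp (3.15, 0.0424) rose, and 9 without saline LCA 1. Of 14 endothelial markers Icam2 fell, and no other cell marker was called with all samples. Medians were 0.95 for fibroblast, 2.06 for adipocyte, 1.86 for erythroid and platelet and -0.32 for endothelial markers. The part of these cells was not tested.

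**Figure D3:**
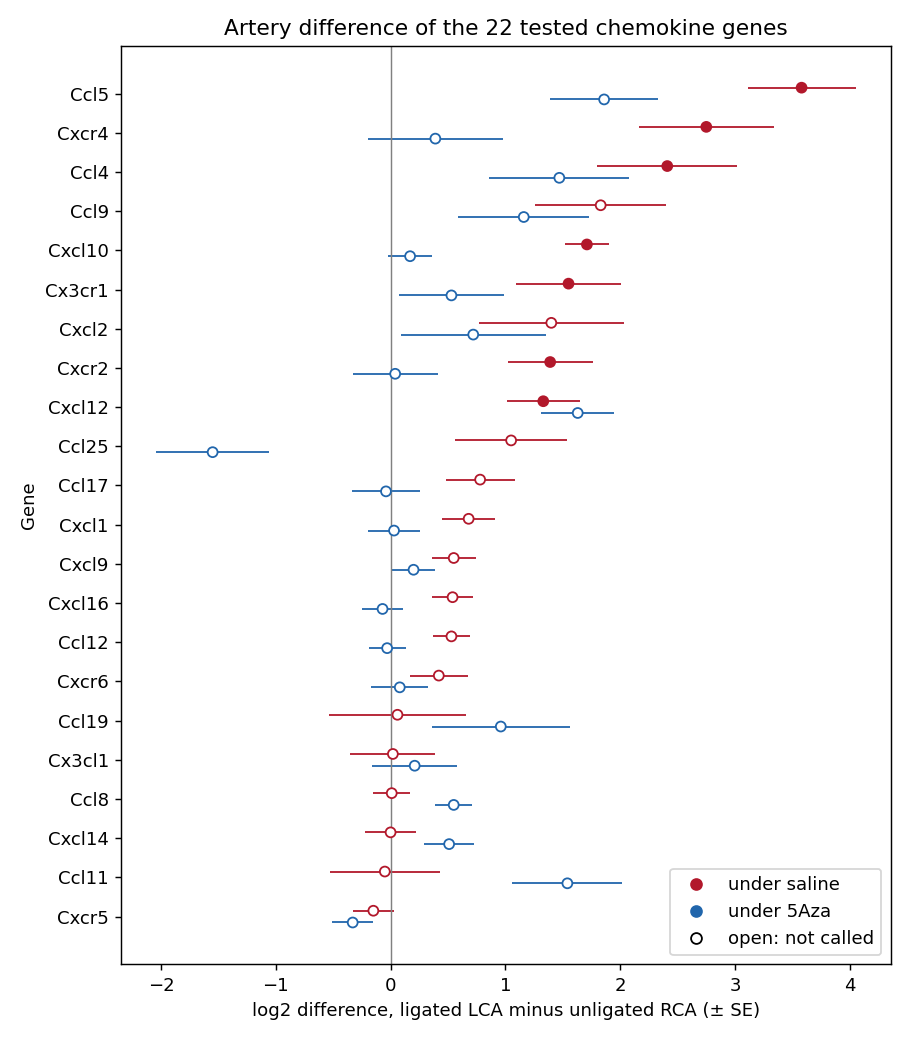
Log2 difference between the ligated and the unligated artery (horizontal axis, ± SE) of the 22 tested members, ordered by the difference under saline, which is red, with 5Aza in blue. Filled points were called. Cxcl12 has 1.33 under saline and 1.63 under 5Aza, Cxcr4 has 2.75 and 0.39, and Cxcl10 has 1.71 and 0.17.

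Averaged over both treatments, 6 members were higher in the ligated vessel and none lower, with 12.9% of all genes called, 6.06% higher and 6.81% lower. Ccl5 rose by 2.72 (limma adjusted p = 0.00103), Cxcl12 by 1.48 (0.00294), Cxcl10 by 0.94 (0.00247), Ccl4 by 1.94 (0.0173), Cxcr4 by 1.57 (0.0326) and Ccl9 by 1.49 (0.0335) on the log2 scale. Without saline LCA 1, 13 were called, with 29.8% of all genes called and 13.7% higher. Leaving out any other array gave 4 or 5. The lost calls were Ccl9 and Cxcr4 in those with 4 and Cxcr4 in those with 5.

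The ligated vessels of both treatments were compared to ask what 5Aza changes under disturbed flow. Cxcl10 fell and no member rose, beside 0.462% of all genes called, with 0.17% lower and 0.293% higher. Cxcl10 was at 4.43, 4.52 and 4.57 in 5Aza LCA 1, 2 and 4, against 5.71, 6.41 and 5.85 in saline LCA, a log2 difference of -1.49 (SE 0.19, limma adjusted p = 0.00972). All 3 treated samples lay below all 3 saline ones, and this probe was detected in 2 of them. The second Cxcl10 probe differed by -0.45 (adjusted p = 0.31 over all probes kept). Without saline LCA 4 or without 5Aza LCA 2 no member was called.

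Next by p were Cxcl16, Cxcr4 and Ccl11. Cxcl16, the membrane-anchored ligand of Cxcr6, was at 8.59, 8.48 and 8.7 in 5Aza LCA and 9.42, 9.31 and 9.35 in saline LCA, without overlap (log2 difference -0.77, SE 0.18, limma adjusted p = 0.0892). Its second probe did not share this, with a difference of 0.11. Cxcr4 was at 4.74, 4.37 and 4.8 in 5Aza LCA, all below the 5.03, 7.83 and 8.07 of saline LCA (-2.34, SE 0.59, limma adjusted p = 0.0974). Cxcr2 was detected on no 5Aza LCA array (4.22, 4.38 and 4.34), which left it at least 2.25-fold lower than in saline LCA (limma adjusted p = 0.105). Cx3cr1 was at 4.55, 4.91 and 5.32 in 5Aza LCA, inside the range of saline LCA (-0.9, limma adjusted p = 0.315).

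In the other direction, Ccl11 (eotaxin, an eosinophil attractant made by fibroblasts and smooth muscle cells) was at 7.43, 7.03 and 6.04 in 5Aza LCA and 6.06, 4.28 and 4.51 in saline LCA. The difference was 1.89 (SE 0.48, limma adjusted p = 0.0974), and the groups overlapped through saline LCA 1. Its second kept probe differed by 0.1. Ccl19, a ligand of Ccr7 whose gene has near-identical copies in the mouse genome that this probe may also read, was at 6.56, 5.98 and 6.21 in 5Aza LCA and at 6.95, 4.32 and 4.34 in saline LCA (1.05, limma adjusted p = 0.369). Ccl8 and Cxcl14 were detected on all 3 5Aza LCA arrays and on no other array. Cxcl14 was at 4.53, 4.49 and 5.37 there and 4.25, 4.22 and 4.27 in saline LCA (0.55, limma adjusted p = 0.204), and Ccl8 at 4.54, 4.82 and 4.95 and 4.22, 4.25 and 4.26 (0.53, limma adjusted p = 0.119). Groups did not overlap for 7 of 22 members lower under 5Aza and 4 higher, beside 8.02% and 10.3% of all genes. Of the lower, Ccl12, Ccl17, Cxcl10, Cxcr2 and Cxcr4 had passed the detection filter through saline LCA alone. Of the higher, Ccl8 and Cxcl14 had passed through 5Aza LCA alone. The filter favoured such differences, so these counts and those given below without saline LCA 1 are no support for a difference.

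Without saline LCA 1, 13 of 22 members were called between the ligated vessels, with 19.4% of all genes called, 8.47% lower and 10.9% higher. The 9 lower were Cxcr4 (-3.31), Ccl5 (-2.23), Cxcr2 (-1.94), Ccl4 (-1.75), Cxcl10 (-1.63), Cx3cr1 (-1.61), Ccl9 (-1.58), Cxcl16 (-0.74) and Ccl12 (-0.65). The 4 higher were Ccl11 (2.44), Ccl19 (1.92), Cxcl12 (1.01) and Ccl8 (0.52). Each value is a log2 difference from the remaining 2 saline LCA samples. With all samples 1 of these 13 calls stood, and which of the 3 saline LCA samples is typical of its group cannot be told from 3 samples.

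**Figure D4:**
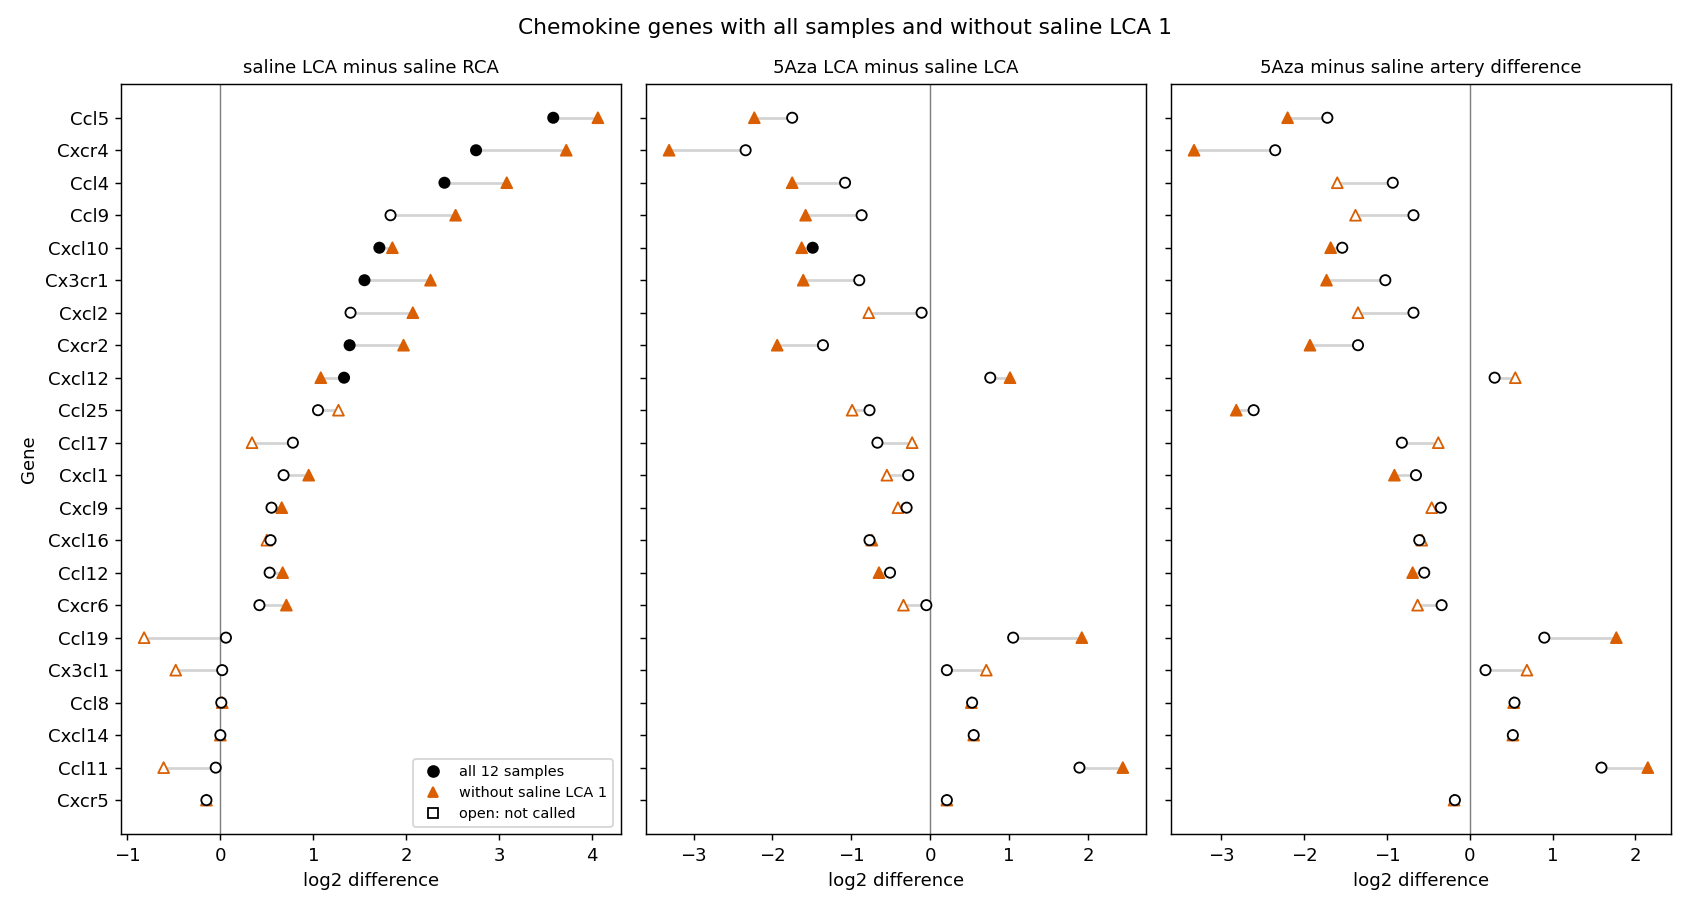
Log2 differences of the 22 tested members in 3 comparisons (panels), with all 12 samples (black circles) and without saline LCA 1 (orange triangles), filled where called. Ccl5, Cxcr4, Ccl4 and Cx3cr1 move away from 0 without that sample, whereas Cxcl10 moves from 1.71 to 1.85 in the saline comparison and from -1.49 to -1.63 between ligated vessels.

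Cell marker levels also differed between the ligated vessels. Macrophage markers had a median log2 difference of -1.17 with none of 16 called, and without saline LCA 1 a median of -1.95 with 12 called lower and 1 higher. Neutrophil markers summed to 7.49 to 8.33 in 5Aza LCA, with none of 2 called (2 called lower without saline LCA 1). Endothelial markers summed to 13.11 to 13.24 in 5Aza LCA and 13.03 in saline LCA, with none of 14 called. Without saline LCA 1, 6 endothelial markers were called higher and 1 lower. Fibroblast markers summed to 11.91 to 12.28 in 5Aza LCA and 10.98 to 11.71 in saline LCA, where saline LCA 1 was highest. None of 10 tested was called with all samples, and 4 were called higher without saline LCA 1. Adipocyte markers summed to 9.87 to 11.53 in 5Aza LCA, above or equal to the 8.46 to 9.87 of saline LCA, and 1 of 4 tested rose (Adipoq), with 2 called higher without saline LCA 1. Smooth muscle markers summed to 10.67 to 11.07 in 5Aza LCA, below the 11.38 to 11.58 of saline LCA, with a median log2 difference of -0.66 and none of 7 called (2 called lower without saline LCA 1). Erythroid and platelet markers summed to 10.96 to 12.76 in 5Aza LCA, above the 9.34 to 10.87 of saline LCA, with none of 6 called with or without saline LCA 1. The part of these cells in the differences of Ccl11, Ccl19, Cxcl12 or the receptors was not tested.

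In the unligated vessel no member was called under 5Aza and no gene of the 10596 was (0%), while 2 members, Ccl25 and Cxcr5, had an unadjusted p under 0.05 in limma. Ccl25, a ligand known for guiding T cells to thymus and gut, was at 6.5, 7.37 and 6.79 in 5Aza RCA 1, 3 and 4 and at 4.31, 6.22 and 4.64 in saline RCA (log2 difference 1.83, SE 0.49, limma adjusted p = 0.65). The second kept probe of Ccl25 differed by -0.03. Cxcr5, a chemokine receptor of B cells, was detected on all 3 5Aza RCA arrays and no saline RCA array. It was at 5.08, 4.57 and 4.73 against 4.45, 4.34 and 4.41 (0.39, limma adjusted p = 0.872), and passed the filter through 5Aza RCA alone. These values are of its kept probe. Its other probes averaged 4.4 and 4.29 in 5Aza RCA and 4.3 and 4.29 in saline RCA. No 5Aza RCA array detected any of the 5 B cell markers with a probe. Cxcl1 was at 10.3, 10.6 and 10.31 against 10.16, 9.83 and 10.15 (0.36, limma adjusted p = 0.982). These 3 members had groups that did not overlap, with 5Aza higher, beside 7.38% of all genes, and no member was lower without overlap, beside 6.17%. Without saline LCA 1 there was again no member called, with 0.00944% of all genes called, all of it lower.

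Whether the vessel difference itself changed with treatment was tested as an interaction. No member and no gene of the 10596 (0%) was called, and 9 members had an unadjusted p under 0.05 in limma. The smallest p-values were those of Cxcl10 (log2 difference of differences -1.54, SE 0.27, limma adjusted p = 0.229), Ccl25 (-2.61, SE 0.7, limma adjusted p = 0.372) and Cxcr4 (-2.35, SE 0.84, limma adjusted p = 0.477). Cxcl12 differed by 0.3 with a 95% interval from -0.69 to 1.28. Members called under saline and not under 5Aza are therefore not shown to differ in their response with all samples. Without saline LCA 1, 10 were called, with 9.59% of all genes called, 4.58% lower and 5.01% higher. Of the 10, 8 were lower (Cxcr4, Ccl25, Ccl5, Cxcr2, Cx3cr1, Cxcl10, Cxcl1 and Ccl12) and 2 were higher (Ccl11 and Ccl19). The estimates were then -3.33 for Cxcr4 (SE 0.23, limma adjusted p = 6e-05) and -1.68 for Cxcl10 (SE 0.25, limma adjusted p = 0.00247). Leaving out any of the other 11 arrays gave no call.

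Ligands whose genes lie side by side were set next to each other. In RefSeq's order Ccl2, Ccl7, Ccl11, Ccl12, Ccl8 and Ccl1 form 1 neighbourhood and Ccl5, Ccl9, Ccl6, Ccl3 and Ccl4 another. In the first, Ccl12 was detected by its brighter probe on the 3 saline LCA arrays (4.48, 4.9 and 4.91) and on none of the others, and the adjacent Ccl8 on the 3 5Aza LCA arrays and on none of the others. Ccl11 was detected on 11 arrays and Ccl1 on none. In the second, all 5 ligands were higher in saline LCA 2 and 4 than in any saline RCA sample. These are descriptions without a test.

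**Figure D5:**
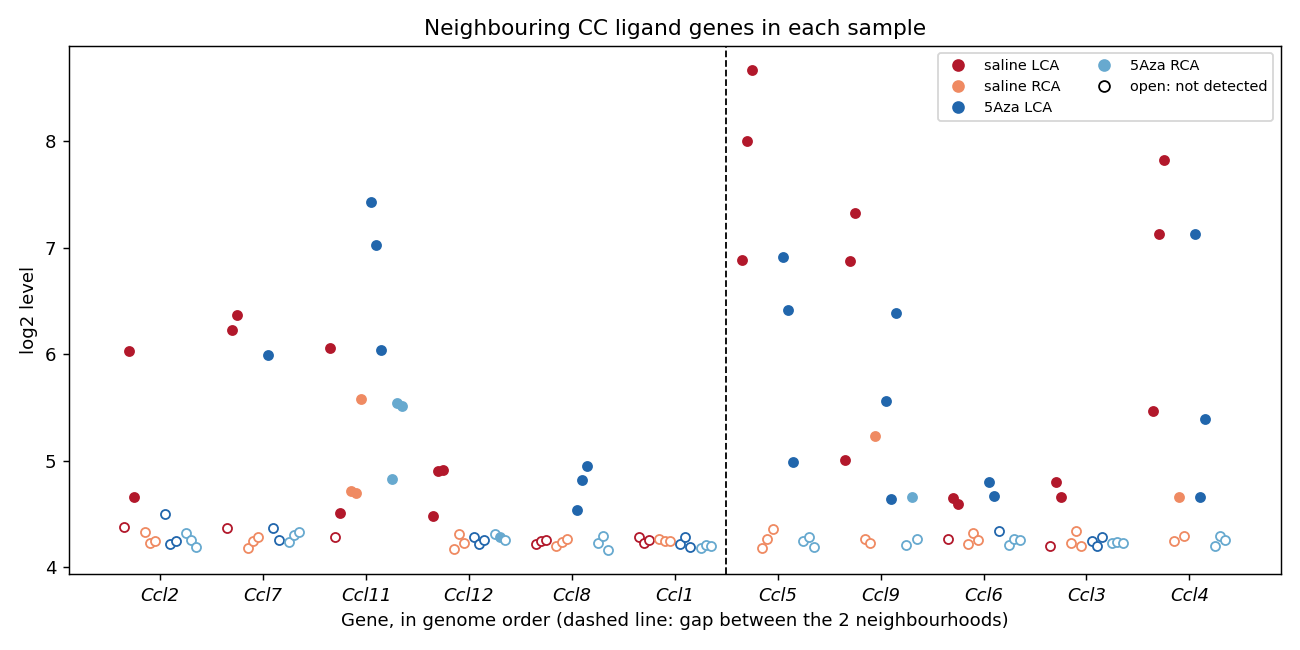
Log2 level (vertical axis) of 11 CC ligand genes in genome order (horizontal axis) in each sample, coloured by group and open where not detected. In the left neighbourhood Ccl12 points above background are from saline LCA and Ccl8 points from 5Aza LCA, while in the right one the highest points of Ccl5, Ccl9 and Ccl4 are from the ligated vessel under either treatment.

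Genes around the receptors were examined in 2 lists. Of 12 tested atypical receptors and regulators, 2 rose in saline LCA against saline RCA and none fell: Arrb2, a beta-arrestin that turns off and internalizes receptors (log2 difference 2.88, SE 0.49, limma adjusted p = 0.00691), and Ackr4, a scavenger of Ccl19 and Ccl25 (1.17, SE 0.31, limma adjusted p = 0.0367). That is 16.7%, beside 11.5% of all genes called (5.29% higher), and the list's median was 0.05. With saline LCA 1 left out, 5 rose and 2 fell, beside 29.4% of all genes, with Arrb2 at 3.02 and Ackr4 at 1.59. Of 22 tested genes of intracellular signalling, 7 rose and 1 fell, or 36.4% called, beside the same 11.5% of all genes (5.29% higher and 6.24% lower), with a median of 0.15. Leaving out saline LCA 1, 9 rose and 4 fell, with a median of 0.26. Those with the smallest p were the Src-family kinase Fgr (2.29), the integrin chain Itgb2 (2.75), the actin regulator Coro1a (1.99), the G protein subunit Gng2 (1.86) and the exchange factor Vav1 (2.58), all higher, and the phospholipase Plcb3 (-1.28), with limma adjusted p from 0.00591 to 0.0242. Fgr, Itgb2, Coro1a and Vav1 are genes of leukocytes in most tissues. The macrophage marker values of the same vessels are given above, and the part of leukocytes in these differences was not tested. Between ligated vessels Fgr fell under 5Aza (-2.11, SE 0.37, limma adjusted p = 0.0374) and no other gene of either list was called, beside 0.462% of all genes. Fgr was at -2.63 (SE 0.23, limma adjusted p = 3.29e-05) without saline LCA 1, and 9 signalling genes fell and 2 rose, beside 19.4% of all genes, while 4 atypical receptors and regulators fell and 2 rose.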

How the data were processed

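Transcript levels of 12 samples, in 4 groups of 3, were read on mouse bead arrays from Illumina, each from 3 pooled arteries per the labels. The deposited unprocessed table holds an intensity and a detection p-value per probe and sample, exported with GenomeStudio 2010.3 per the submitters' processing notes. A deposited table of normalized intensity values, whose columns share 1 distribution, served as an alternative. Per the series description, 2 microarrays carried the samples. Their assignment is not given in the sources used here and was not modelled.

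From the unprocessed intensities, background was corrected and values were quantile-normalized and put on the log2 scale with limma 3.58.1 in R 4.3.3 (neqc, offset 16, with controls inferred from detection p-values). Probes detected (detection p under 0.05) on all 3 arrays of at least 1 group were kept, 21979 of 45281. Symbols came from the platform annotation, updated by gene identifier for 34807 of the 34885 probes with 1 symbol; 18 had several and 10378 none. The brightest kept probe stood for a gene, but a gene counted as detected where any of its probes was. Group means were fitted to all 12 samples and 6 contrasts tested with eBayes (moderated degrees of freedom 11.7) and Benjamini-Hochberg adjustment. The pipeline was tested on simulated data.

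The members, gene lists and tests were chosen with earlier results of these data known. Named are all members called in any comparison, the 3 with the smallest p where fewer than 3 were called, the untested members by number of arrays, and up to 6 called genes of each pathway list. Alternatives covered starting values, background, scaling, filter, probes, variance prior, array weights, samples in the fit, replicate blocks, a minimum fold and omitting each array in turn, where a group reduced to 2 samples takes its spread from all groups. Promoter windows are RefSeq's, found for 35 members.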

Additional observations from a re-analysis of the deposited data

Results flagged for a closer look

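Ccl25 stood out because 5Aza samples lay lower than saline samples in the ligated vessel and higher in the unligated one, without overlap in either. The difference of the 2 vessel differences was -2.61 on the log2 scale (SE 0.7), and the limma interaction test gave adjusted p = 0.372. Of its 3 probes 2 were kept, and the second kept probe gave 0.38 for the same quantity, in the opposite direction. A single probe therefore carries the pattern.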

How the results depend on the processing

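The 25 differences of members called in a contrast, or among its 3 smallest p, kept their sign under each alternative: of 677 comparisons with an alternative, 554 stayed on their side of the threshold, 98 lost a call and 25 gained one. Ccl5 was called between saline vessels under all 28 alternatives (adjusted p up to 0.0387) and Cxcl10 under 27 of 28, with adjusted p = 0.07 with a fixed replicate block. Over all tested members, 62 of 3540 comparisons changed sign, none of them called in either setting. Between saline vessels Ccl19 moved from 0.06 to -0.82 and Cx3cl1 from 0.02 to -0.48 without saline LCA 1. Counts of members called moved as follows, and the cause was not tested. Between saline vessels (7 calls), there were 3 with no filter, 1 with probes detected on all 12 arrays, where fewer genes are tested, 12 with a trended and robust prior, 14 with array weights, 2 with the compared groups alone and 2 with a minimum fold of 1.5. Between 5Aza vessels (0 calls, 7 members with unadjusted p under 0.05), there was 1, Cxcl12, with the deposited table, with no background correction, with offset 50, with detection p under 0.01, with the mean of probes, with the trended prior and with the compared groups alone, and 2 with array weights. Between ligated vessels (1 call), there were 2 with the deposited table, with no background correction and with the trended prior, 13 with array weights, and 0 with probes detected on all 12 arrays, with the compared groups alone and with the minimum fold. The interaction (0 calls) gave 9 with array weights, and the average over treatments (6 calls) gave 1 with probes detected on all 12 arrays, 1 with the minimum fold and 13 with array weights. Leaving out 1 array gave 2 to 13 calls between saline vessels, 0 to 2 between 5Aza vessels, 0 to 13 between ligated vessels, 0 to 10 for the interaction and 4 to 13 for the average. The highest of each came without saline LCA 1. The unligated vessels gave 0 throughout.

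Equal title numbers were not taken as pairs: deviations of same-numbered saline arteries correlated at 0.056, 0.047 and 0.033, and of 5Aza arteries at 0.0182 and -0.0276. Each saline LCA sample correlated best with its own number, a hint from the data and not from the design. With the title number as a random replicate block (consensus correlation 0.0185) the counts were 7, 0, 1, 0, 0 and 6 in the order of the contrasts, with the description number as a fixed block 8, 0, 1, 0, 0 and 7, and with the title number fixed within treatment 1 between saline vessels (Ccl5) and 0 between 5Aza vessels. Signals near background bound what can be seen: members on no array, and folds given as bounds, cannot be ranked.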
